A study of Homo sapiens with 4 samples.

Results

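The genes examined here code for caspases, for death receptors that switch caspases on, and for proteins that hold caspases in check. They are CASP8, CASP9, FAS, TNFRSF10A, TNFRSF10B, CFLAR, XIAP and BIRC2, chosen by name, and each of the 8 was matched to 1 row among 58735 genes through its Ensembl identifier in GENCODE release 44. RNA-seq gave their RNA levels in cells labelled NB4, a line derived from a patient's acute promyelocytic leukemia. There were 2 control libraries, labelled as controls for GNE-987, and 2 libraries from cells exposed to GNE-987 (25 nM, 24 h). This compound is a degrader with a pair of binding ends, which tethers its target proteins to an E3 ligase and so has them destroyed, and it was used to ask which genes respond to it in leukemia cells. All 4 libraries come from 1 cell line, no vehicle is named in the labels of the control libraries, and nothing states that libraries of a group came from separate cultures, so the p-values measure the spread between these libraries, which may be technical.

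Caspases are proteases that wait in the cell as inactive precursors. In the extrinsic pathway, a ligand binds a death receptor at the cell surface, the receptor gathers the adaptor FADD, and FADD gathers caspase-8, the initiator caspase of that pathway. FAS binds FAS ligand, and TNFRSF10A and TNFRSF10B, also called DR4 and DR5, bind TRAIL. CFLAR codes for c-FLIP, a relative of caspase-8 that lacks protease activity and competes for its place on FADD. In the intrinsic pathway, cytochrome c from mitochondria and APAF1 form the apoptosome, which activates caspase-9. XIAP binds and inhibits caspase-9 and caspases that act after it, and BIRC2 codes for cIAP1, a ubiquitin ligase that keeps TNF receptor signalling on its survival branch.

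The members did not move together. CASP8 was about 3 times higher in the GNE-987 libraries (2.97-fold by mean FPKM), whereas TNFRSF10A (8.17-fold), CFLAR (3.73-fold), CASP9 (2.59-fold) and XIAP (2.59-fold) were lower on the deposited scale. The 4 decreases held under every scaling of the libraries tried, while the rise of CASP8 did not. As deposited, TNFRSF10B and BIRC2 differed by less than 2-fold between the groups, and FAS was at or near 0 throughout.

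The unit was FPKM as the authors deposited it, that is, fragments divided by transcript length and by a factor for each library. A gene passed the test where limma, on log2(FPKM + 0.1), returned P under 0.05 before adjustment together with a change beyond 2-fold in either direction. Genes averaging 0.5 FPKM or more were tested, 16668 in all, and 7 of the 8 members were among them. A gene near 0 in control could enter only through its GNE-987 values. It could then come out only on the higher side, and the reverse holds for a gene near 0 after GNE-987. Of those 7, 1 passed as higher and 4 as lower. Among all tested genes 24.9% passed as lower and 33.6% as higher, and of the 10996 protein-coding ones 3486 passed as lower and 2638 as higher. The median log2 fold change was -1.31 over the 7 members, 0.17 over all tested genes and -0.29 over the protein-coding ones. The adjusted P value was under 0.05 (limma) for all 7 tested members and for 12941 of the 16668 tested genes. With so many genes changed, a change in any single member was common here. How many of all genes had groups that did not overlap was not counted. With 2 libraries per group, groups that do not overlap describe a member's values and say little more.

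The markers of the label were mostly low in control, and erythroid markers stood higher. Of the 11 myeloid markers 0 were over 10 FPKM in both control libraries, against 5 of the 10 erythroid ones. By these lists the control profile was more erythroid than promyelocytic, unlike the label. Whether the label is right was not tested. The granule genes ELANE and CTSG were at 0 in control, and MPO, the granule enzyme of promyelocytes, was at 0.0246 and 0 FPKM against 11.8 and 11.3 FPKM after GNE-987, while SPI1 (7.52 and 5.68 FPKM), AZU1 (2.07 and 2.10) and LYZ (2.02 and 1.59) were present in control. The 11 myeloid markers summed to 11.2 to 13.1 FPKM in the control and 37.4 to 39.0 FPKM in the GNE-987 libraries. All genes of the series summed to 218486 and 227275 FPKM in control and to 624137 and 612335 FPKM after GNE-987. Such sums therefore depend on the scaling. Of the 7 tested myeloid markers, 4 passed as higher and 1, CD33 (-1.07), as lower as deposited. SPI1 (-0.72) did not pass. Scaled to GAPDH, 2 passed as higher and 2 as lower, beside 2261 and 10359 of all 16220 genes tested under it. The 10 erythroid markers summed to 323 to 324 and 334 to 383 FPKM. Of the 9 erythroid markers tested, 4 passed as higher and 4 as lower as deposited, and 0 and 5 when scaled to GAPDH. Among them the factor GATA1 was at 124 and 122 FPKM against 15.1 and 12.5 FPKM, and KLF1 at 85.2 and 85.9 against 27.3 and 24.8 FPKM. The globin HBG1 was at 42.3 and 44.8 against 154 and 123 FPKM. The 6 lymphoid markers summed to 16.2 to 17.2 and 43.6 to 44.2 FPKM. CD3D (16.2 and 15.3 FPKM) made up most of the control sum, CD79A was at 0.0867 and 0 against 23.4 and 21.4 FPKM, and CD3E, MS4A1 and PAX5 were at 0 in both control libraries. The part of these differences in the members' results was not tested. In bulk libraries, fewer cells of a type and less RNA per cell cannot be told apart.

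The FPKM values move in steps of 1 read, and the reads on genes counted from those steps came to 19079699 and 18889752 in control and to 12259909 and 12760327 after GNE-987. The totals implied by the deposited scaling were 1.21 and 1.17 times these in control but 0.682 and 0.692 times in the GNE-987 libraries. In the GNE-987 libraries the divisor was thus smaller than the reads on genes themselves. The choice of scaling therefore sets how high the GNE-987 values stand. Median-ratio scaling left the deposited values nearly unchanged, so it is hardly a separate setting. Against the deposited values, the median log2 fold change of all genes moved by -0.42 with quantile normalization, by -0.75 with limma-voom on recovered reads, by -0.88 when scaled to reads on genes, by -1.44 when scaled to a common FPKM sum and by -2.03 when scaled to GAPDH, and by -0.00 with median-ratio scaling. The share of higher among passing genes was 57.5% as deposited and 43.7%, 38.8%, 35.3%, 28.0% and 17.9% under the first 5 of these settings in that order. Scaled to GAPDH, 2261 of 16220 tested genes passed as higher and 10359 as lower, so counts under GAPDH lean to lower in general. GAPDH itself was at 398 and 432 FPKM in control and 1501 and 1499 FPKM after GNE-987.

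Both gene pairs CFLAR and CASP8, and CASP9 and XIAP, are shown by the 250 bases before their most upstream RefSeq start (GRCh38.p14, read in the direction of transcription), with GC boxes, GGGCGG on either strand, in capitals. CFLAR (chr2:201118466-201118715, plus strand) and CASP8 (chr2:201233213-201233462, plus strand) lie near each other and changed in opposite directions on the deposited scale. CASP9 (chr1:15524791-15525040, minus strand) and XIAP (chrX:123859458-123859707, plus strand) lie on different chromosomes and changed by nearly the same amount.
CFLAR: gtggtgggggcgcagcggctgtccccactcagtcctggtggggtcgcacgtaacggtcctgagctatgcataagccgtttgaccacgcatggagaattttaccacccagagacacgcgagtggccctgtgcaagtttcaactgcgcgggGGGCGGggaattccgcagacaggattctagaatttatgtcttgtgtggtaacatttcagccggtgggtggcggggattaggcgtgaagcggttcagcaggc
CASP8: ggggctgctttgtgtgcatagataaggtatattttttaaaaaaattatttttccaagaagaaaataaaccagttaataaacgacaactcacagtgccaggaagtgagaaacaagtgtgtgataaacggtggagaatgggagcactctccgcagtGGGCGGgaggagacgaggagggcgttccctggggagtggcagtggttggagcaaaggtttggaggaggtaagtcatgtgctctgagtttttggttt
CASP9: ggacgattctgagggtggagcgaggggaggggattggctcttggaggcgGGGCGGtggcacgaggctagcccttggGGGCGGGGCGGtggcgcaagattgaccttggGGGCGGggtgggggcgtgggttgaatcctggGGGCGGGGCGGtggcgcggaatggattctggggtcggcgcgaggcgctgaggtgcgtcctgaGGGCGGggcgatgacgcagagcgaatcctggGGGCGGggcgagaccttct
XIAP: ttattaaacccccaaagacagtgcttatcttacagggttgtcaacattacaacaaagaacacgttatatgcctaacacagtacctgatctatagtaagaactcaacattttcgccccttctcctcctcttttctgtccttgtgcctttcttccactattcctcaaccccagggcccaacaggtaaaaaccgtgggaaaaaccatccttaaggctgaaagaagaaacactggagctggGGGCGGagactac
Over the 6 members whose windows were read, CASP9 held 8 GC boxes, some overlapping, BIRC2 held none, and FAS, CFLAR, CASP8 and XIAP held 1 each. Of 35116 windows over all listed starts of 27305 genes, 42.6% held at least 1. The members are shown by their most upstream start only, so the 2 sets of windows were not chosen alike. The windows of BIRC2 (33), CASP9 (25), CFLAR (17) and FAS (14) held more CpG pairs than the median window (11), and those of CASP8 (6) and XIAP (4) fewer. CASP9 and XIAP, which fell alike, thus differed widely in base composition. Each gene has 2 to 4 RefSeq starts, and which one these cells use cannot be read from values per gene.

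The TRAIL receptors parted. TNFRSF10A (chr8:23190452-23225102) was at 12.7 and 15.0 FPKM in control and at 1.66 and 1.73 FPKM after GNE-987, from 860 and 981 reads against 41 and 45. Both control libraries lay well above both GNE-987 libraries. The log2 fold change was -2.95 ± 0.115 (SE, n = 2 per group), with an adjusted P value of 0.000235 (limma, Benjamini-Hochberg over all tested genes). The decrease passed under every scaling and was deepest with GAPDH (-4.73).
TNFRSF10B (chr8:23020133-23069031) was at 7.66 and 8.45 FPKM in control and at 12.3 and 10.5 FPKM after GNE-987. The groups did not overlap, with the GNE-987 libraries the higher pair as deposited. The log2 fold change was 0.50 (95% confidence interval 0.18 to 0.81, adjusted P value 0.0181 in limma), under the 2-fold limit, and its direction turned with scaling to reads on genes (-0.29), limma-voom (-0.29), a common FPKM sum (-0.97) and GAPDH (-1.34), where it passed as lower. TNFRSF10B is therefore given as a value with no direction.
Relative to each other, the receptors changed places. A ratio of 2 genes within a library does not change when all values of that library are scaled by a single factor, although quantile normalization can change it. TNFRSF10A RNA per length was 1.65 and 1.78 times that of TNFRSF10B in control and 0.135 and 0.165 times after GNE-987, 11.5-fold lower.
FAS (chr10:88953813-89029605) was listed at 0.0204 and 0 FPKM in control and at 0 in both GNE-987 libraries. It was not tested, and the number of reads behind its single value could not be settled. No fold is given for it.

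The initiator caspases also parted. CASP8 (chr2:201233443-201361836) was at 2.78 and 2.55 FPKM in control and at 7.79 and 8.01 FPKM after GNE-987. As deposited, every GNE-987 value was above every control value, and the log2 fold change was 1.53 ± 0.0854 (SE), with an adjusted P value of 0.000445 (limma). The rise kept its side of the threshold with quantile normalization (1.46), fell under it with limma-voom (0.78), reads on genes (0.76) and a common FPKM sum (0.10), and turned to -0.28 with GAPDH. The recovered reads, 464 and 408 against 472 and 512, were near each other in number, while the GNE-987 libraries held fewer reads on genes in all. CASP8 stood 1.36 log2 units above the median change of the tested genes as deposited.
CASP9 (chr1:15490832-15526534) was at 3.27 and 3.64 FPKM in control and at 1.25 and 1.42 FPKM after GNE-987, from 397 and 424 reads against 55 and 66. The groups did not overlap. The log2 fold change was -1.31 ± 0.131 (SE), with an adjusted P value of 0.00173 (limma), and it stayed lower in every scaling, although a pseudocount of 1 in place of 0.1 took it under the 2-fold limit.

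CFLAR (chr2:201116154-201176687), the caspase-8 competitor, was at 3.47 and 3.56 FPKM in control and at 0.881 and 1.00 FPKM after GNE-987. It had the most recovered reads of any member in control, 1799 and 1773, against 166 and 199 after GNE-987. The log2 fold change was -1.80 ± 0.127 (SE), with an adjusted P value of 0.000737 (limma), and it stayed lower under every scaling tried. Its exon length was 22529 bases by search, against 22478 as annotated, the longest of the tested members. This length keeps its FPKM low beside theirs but does not touch its change. The ratio of CFLAR to CASP8 was 1.25 and 1.40 in control and 0.113 and 0.125 after GNE-987, 11.1-fold lower (log2 -3.47). CFLAR RNA per length was thus above CASP8 RNA in both control libraries and below it in both GNE-987 libraries.

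Among the inhibitor of apoptosis genes, XIAP passed as lower and BIRC2 did not pass as deposited. XIAP (chrX:123859712-123913972) was at 4.01 and 4.92 FPKM in control and at 1.70 and 1.76 FPKM after GNE-987, from 833 and 983 reads against 128 and 140. The groups did not overlap, and the log2 fold change was -1.31 ± 0.139 (SE), with an adjusted P value of 0.00203 (limma). It stayed lower under every scaling, although a pseudocount of 1 took it just under the 2-fold limit (-0.998).
BIRC2 (chr11:102347211-102378670) was at 6.65 and 6.52 FPKM in control and at 4.94 and 4.75 FPKM after GNE-987. The GNE-987 libraries were lower in both cases, by 0.44 on the log2 scale (95% confidence interval -0.63 to -0.24), and the adjusted P value was 0.00644 in limma. The change stayed under 2-fold as deposited and with quantile normalization (-0.44), and passed as lower with reads on genes (-1.21), limma-voom (-1.23), a common FPKM sum (-1.90) and GAPDH (-2.25). The ratio of BIRC2 to XIAP was 1.66 and 1.32 in control and 2.91 and 2.70 after GNE-987, with no overlap.
The ratio of XIAP to CASP9, the initiator it binds, was 1.22 and 1.35 in control and 1.36 and 1.24 after GNE-987. The control and GNE-987 ranges of this ratio overlapped, and the difference was 0.01 on the log2 scale, smaller than the SD between libraries of a group (0.102 and 0.0946).

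**Figure D1:**
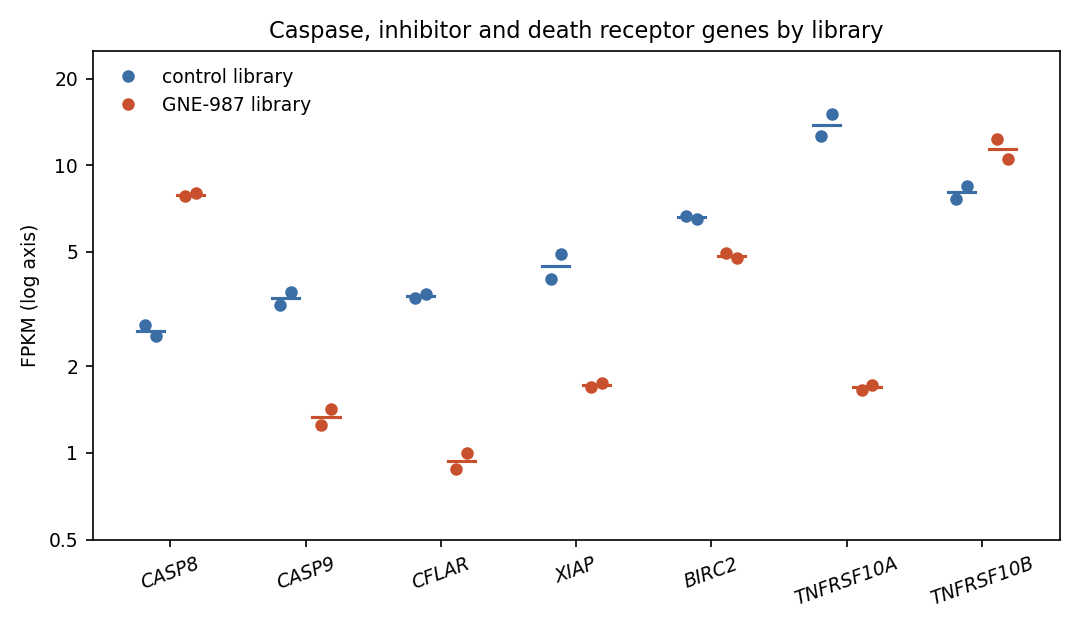
FPKM (log axis) of the 7 tested members in each library, control in blue and GNE-987 in orange, with a bar at each group's mean of 2 libraries. No drawn member's groups overlap as deposited, which says little with 2 libraries per group and was not counted over all genes. The adjusted P value was under 0.05 (limma) for 12941 of all 16668 tested genes. CASP8 rises from 2.66 to 7.90 FPKM, turning to -0.28 log2 when libraries are scaled to GAPDH, and TNFRSF10A falls from 13.8 to 1.70 FPKM and is lower under every other scaling too. FAS, at or near 0, is not drawn.

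Ordered by mean FPKM, a level per length, the control libraries ran from TNFRSF10A (13.8) through TNFRSF10B (8.06), BIRC2 (6.59), XIAP (4.47), CFLAR (3.51), CASP9 (3.46) and CASP8 (2.66) to FAS (0.0102). CFLAR and CASP9 overlapped in their libraries, and the other neighbours in that order did not. After GNE-987 the order was TNFRSF10B (11.4), CASP8 (7.90), BIRC2 (4.84), XIAP (1.73), TNFRSF10A (1.70), CASP9 (1.33) and CFLAR (0.941). XIAP and TNFRSF10A overlapped there. Scaling a library by a single factor does not change the order within that library. It could change the order of the means for CFLAR and CASP9, which changed places between the control libraries. CASP8 moved from the last place among the tested members to the second, and TNFRSF10A from the first to the fifth.

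**Figure D2:**
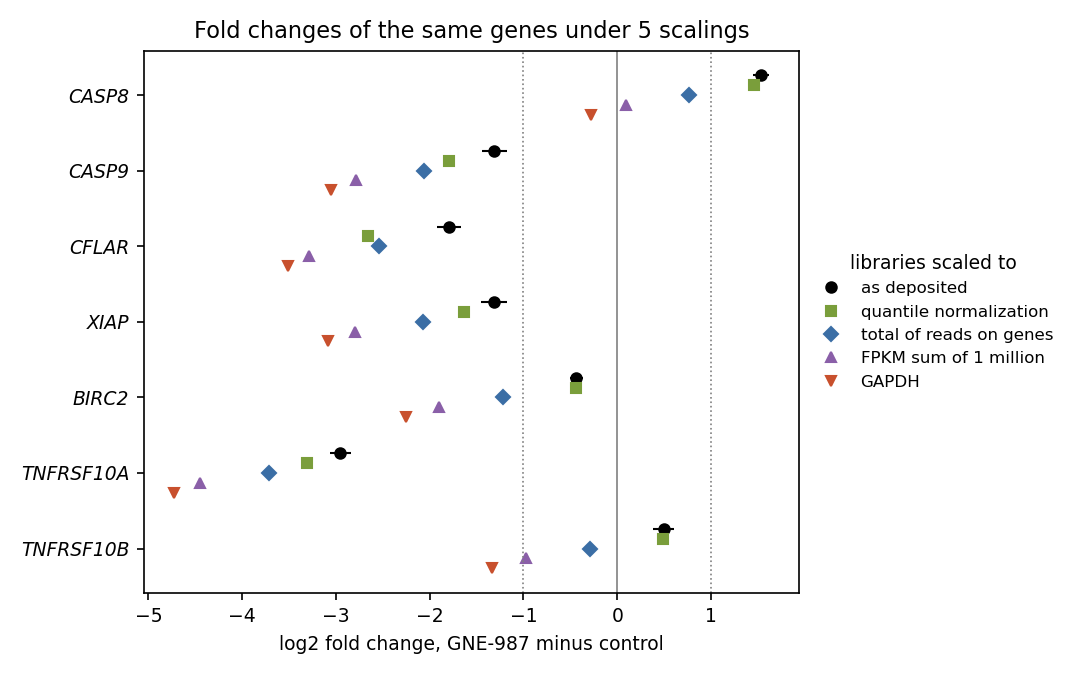
Log2 fold change of each tested member (GNE-987 minus control) under 5 scalings of the libraries, with the SE on the deposited scale and dotted lines at a 2-fold change. CFLAR, TNFRSF10A, XIAP and CASP9 lie left of the lower dotted line in all 5. CASP8 runs from 1.53 as deposited to -0.28 with GAPDH, TNFRSF10B from 0.50 to -1.34 and BIRC2 from -0.44 to -2.25.

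In all, 8 ratios were listed and 7 had a value, since FAS was listed at 0. With 2 libraries against 2 the smallest 2-sided p that an exact permutation test can give is 0.333, so no ratio could reach 0.05. That value was met by each ratio except XIAP to CASP9 (exact permutation p = 0.667), and it became 0.389 after Benjamini-Hochberg adjustment over the 7. The ratio of CASP9 to APAF1, its partner in the apoptosome, was 1.37 and 1.47 in control and 0.197 and 0.219 after GNE-987, 6.84-fold lower. The ratio of XIAP to DIABLO, its mitochondrial antagonist, was 13.6 and 13.2 against 0.191 and 0.208, 67.3-fold lower, and DIABLO shares exon bases with other genes. The ratio of BIRC2 to its relative BIRC3 was 384 and 121 against 31.0 and 18.5, but BIRC3 was at 0.0173 and 0.0541 FPKM in control and 0.159 and 0.256 FPKM after GNE-987, too low to be tested.

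**Figure D3:**
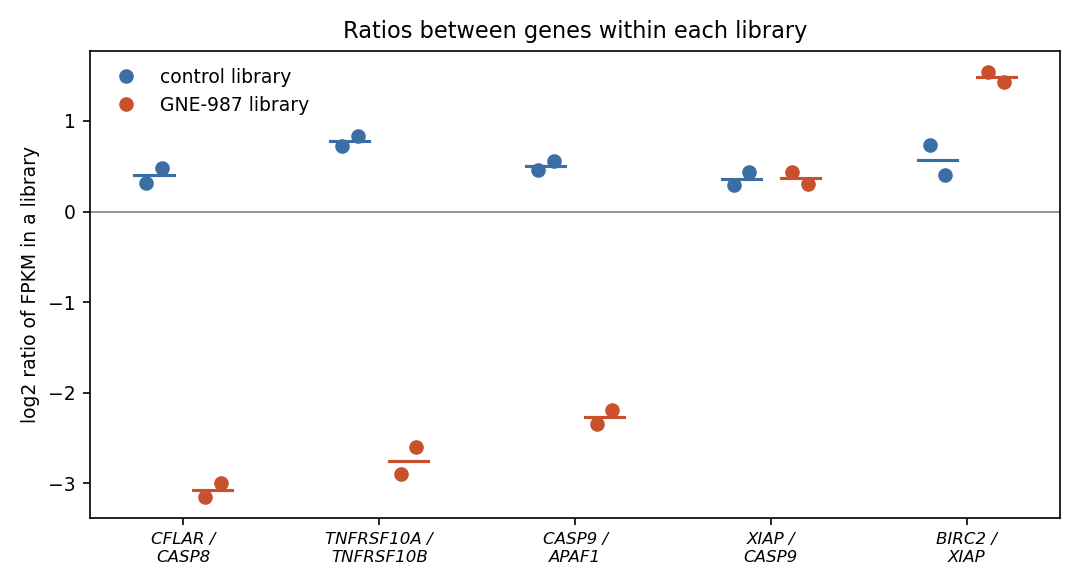
Log2 ratio of FPKM between 2 genes within each library (control in blue, GNE-987 in orange, bars at group means), a quantity that scaling a library by a single factor does not change. CFLAR to CASP8, TNFRSF10A to TNFRSF10B and CASP9 to APAF1 fall below their control values in both GNE-987 libraries, BIRC2 to XIAP lies above them in both, and XIAP to CASP9 overlaps.

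CFLAR, CASP10 and CASP8 stand in a row on the plus strand of chromosome 2. CASP10 starts 6.185 kb past the end of CFLAR, and CASP8 starts 4.015 kb past the end of CASP10. CASP10, the nearest relative of CASP8, was at 2.17 and 2.46 FPKM in control and at 5.73 and 4.40 FPKM after GNE-987, a log2 fold change of 1.09 as deposited that was -0.72 with GAPDH and -0.35 with a common FPKM sum. So CASP10 and CASP8 passed as higher and CFLAR, immediately upstream, as lower on the deposited scale. Within 400 kb of the start of CFLAR, a window chosen after the values were seen, 25 genes were tested, of which 18 passed as higher and 3 as lower as deposited, beside 33.6% and 24.9% of all tested genes. AOX2P, RNU1-133P, BZW1-AS1, RNU6-31P, BICD1P1 and RNA5SP115 were at 0 in both control libraries. They entered through their GNE-987 values and could come out only on the higher side. RNU7-45P, at 0 in both GNE-987 libraries, could come out only on the lower side. These counts are therefore no measure of the locus. With GAPDH 8 genes of the window passed as higher and 7 as lower, beside 2261 and 10359 of all 16220 genes tested under that scaling. Among the 14 protein-coding genes and lncRNAs, CFLAR included, 8 passed as higher and 2, CFLAR and TRAK2, as lower as deposited, and with GAPDH 1 and 6. Gene totals do not separate spliced from unspliced reads, and no strand setting is given in the sources used here, so reads that run past the end of a gene into the next cannot be told apart from the next gene's own.
The TRAIL receptors lie 121.421 kb apart on chromosome 8, on the minus strand. Around TNFRSF10A, both lncRNAs that overlap it on the opposite strand were also lower as deposited. TNFRSF10A-AS1 was at 3.14 and 3.05 FPKM in control and at 0.376 and 0.711 FPKM after GNE-987, and TNFRSF10A-DT at 2.56 and 2.42 against 0.0978 and 0.463 FPKM. They share 224 and 266 exon bases with TNFRSF10A, so without strand in the counting their reads cannot be told apart there. CHMP7 (-2.03) and R3HCC1 (-1.43), which start past TNFRSF10A as seen from TNFRSF10B, passed as lower too. Of the 11 protein-coding genes and lncRNAs tested within the same distance of TNFRSF10B, 2 passed as higher and 5 as lower as deposited, and 1 and 9 with GAPDH. Among all tested genes 33.6% passed as higher and 24.9% as lower as deposited. With GAPDH 2261 of 16220 passed as higher and 10359 as lower, so these counts too are no measure of the locus.

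**Figure D4:**
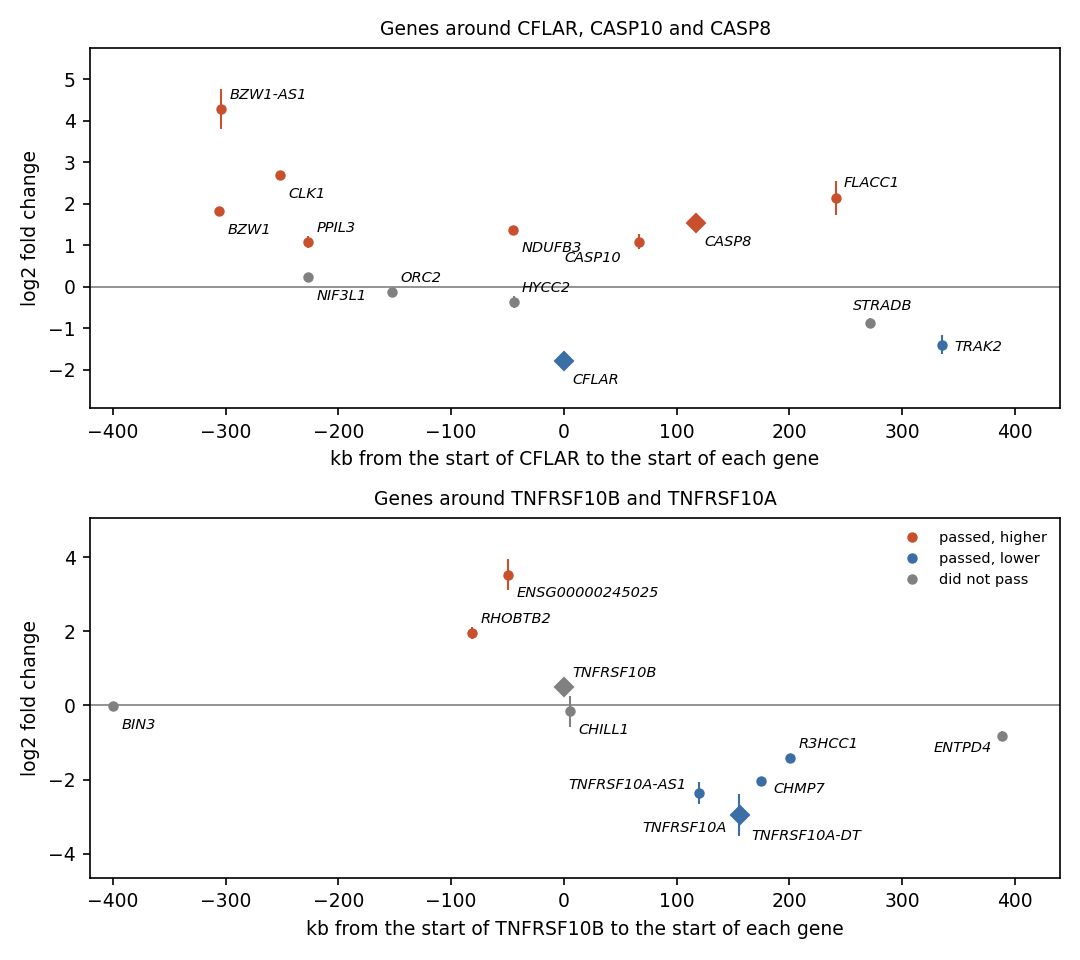
Log2 fold change (± SE) on the deposited scale of tested protein-coding genes and lncRNAs, by distance in kb from the start of CFLAR (upper panel) and of TNFRSF10B (lower panel), with members as diamonds. CFLAR (-1.80) passes as lower between genes that pass as higher or do not pass, CASP8 being 1.53 as deposited and -0.28 with GAPDH. TNFRSF10A (-2.95) lies in a group of 5 genes that pass as lower, as 24.9% of all tested genes do.

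Other members overlap annotated genes as well, and their shared reads cannot be told apart either. TNFRSF10B shares 377 exon bases with RHOBTB2 on the opposite strand, which was at 0.924 and 1.18 FPKM in control and 4.34 and 4.30 FPKM after GNE-987. CASP9 shares 101 exon bases with CELA2B, at 0.0596 and 0.0310 against 1.56 and 2.49 FPKM, and CFLAR shares 777 with CFLAR-AS1, at 0.230 and 0.229 against 0.0276 and 0.0784 FPKM. CASP8 overlaps FLACC1 with no shared exon bases. FLACC1 was at 0.115 and 0.206 against 1.36 and 0.774 FPKM.

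The rest of the pathway was read from a list of 54 further genes, of which 32 were tested. Of these, 6 passed as higher and 12 as lower as deposited, and the median log2 fold change of the tested genes was 0.01. Among all tested genes 33.6% passed as higher and 24.9% as lower. Of the 10996 protein-coding ones 2638 passed as higher and 3486 as lower, so the list was not far from these shares. Among the 6, SEPTIN4, DIABLO and EDAR averaged 0.00824, 0.334 and 0.0245 FPKM in control. They entered the test through their GNE-987 values and could come out only on the higher side. Among the 12, DFFB (0.343 FPKM after GNE-987) entered through its control values. Under scaling to GAPDH, where 31 could be tested, the counts were 2 and 25. Over all genes under that scaling, 2261 of 16220 passed as higher and 10359 as lower, so a lean to lower was general.
Of 9 other caspases, 5 were tested. CASP2 was at 5.06 and 5.72 FPKM in control and at 1.60 and 2.08 FPKM after GNE-987. CASP2 and CASP6 passed as lower under every scaling, each with a log2 fold change of -1.51 as deposited.
No death ligand was high enough to be tested, of 5 listed. FASLG was at 0 in control, in both libraries, against 0.127 and 0.120 FPKM after GNE-987, TNFSF10, which codes for TRAIL, at 0.0375 and 0.0521 against 0.276 and 0 FPKM, and TNF at 0.104 and 0.0270 against 0.642 and 0.0676 FPKM. The TRAIL decoys TNFRSF10C and TNFRSF10D were at 0.169 FPKM or less in every library. TNFRSF1A, the main TNF receptor, passed as lower under every scaling, from 9.33 and 9.10 to 2.27 and 1.78 FPKM (-2.14). EDAR, the ectodysplasin receptor, was at 0.0491 and 0 FPKM in control and at 1.59 and 1.31 FPKM after GNE-987, and passed as higher on the deposited scale.
Among 11 tested adaptors and kinases of the death complexes, 3 passed as lower and none as higher as deposited, beside 24.9% and 33.6% of all tested genes. With GAPDH 10 passed as lower, beside 10359 of all 16220 genes tested under it. FADD, which links receptors to caspase-8, was at 7.69 and 7.42 FPKM in control and 4.03 and 3.02 FPKM after GNE-987 (-1.09). TRAF2 (-1.64) and DEDD (-1.68) were the other two, and all 3 were lower under every scaling. RIPK1 (0.50) and TRADD (-0.04) did not pass as deposited, and with GAPDH gave -1.35 and -1.87, both passing as lower.
Among the apoptosome and inhibitor antagonist genes, 4 of 7 tested passed as higher and 2 as lower as deposited, beside 33.6% and 24.9% of all tested genes. Of the 4, SEPTIN4 and DIABLO entered the test through their GNE-987 values. APAF1 rose from 2.39 and 2.48 to 6.34 and 6.49 FPKM (1.36) and CYCS, which codes for cytochrome c, from 72.3 and 73.0 to 151 and 147 FPKM (1.03), but scaling to GAPDH turned both negative (-0.44 and -0.82). SEPTIN4, whose ARTS isoform antagonises XIAP, rose under every scaling, from 0.0108 and 0.00564 to 3.97 and 4.19 FPKM, and so did DIABLO (4.34). HTRA2, another mitochondrial antagonist of XIAP, passed as lower (-1.23).
DIABLO was at 0.295 and 0.374 FPKM in control and at 8.90 and 8.46 FPKM after GNE-987. It shares 970 exon bases, 13.9% of its own, with B3GNT4 on the opposite strand, which went from 0.120 and 0.0771 to 37.5 and 39.6 FPKM, and 2192 with ENSG00000284934 on its own strand. Reads from these genes cannot be told apart from DIABLO reads in the shared bases.
BIRC5, the survivin gene, was at 36.1 and 37.2 FPKM in control and 46.9 and 52.3 FPKM after GNE-987 (0.43, not passing as deposited, and -1.42, passing as lower, with GAPDH), and BIRC6 passed as lower (-1.30). Of 4 caspase substrates, DFFB (-3.21), ACIN1 (-1.57) and DFFA (-1.40) passed as lower under every scaling. PARP1 did not pass as deposited (0.19) and passed as lower with a common FPKM sum (-1.28) and GAPDH (-1.67). As deposited 24.9% of all tested genes passed as lower.

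**Figure D5:**
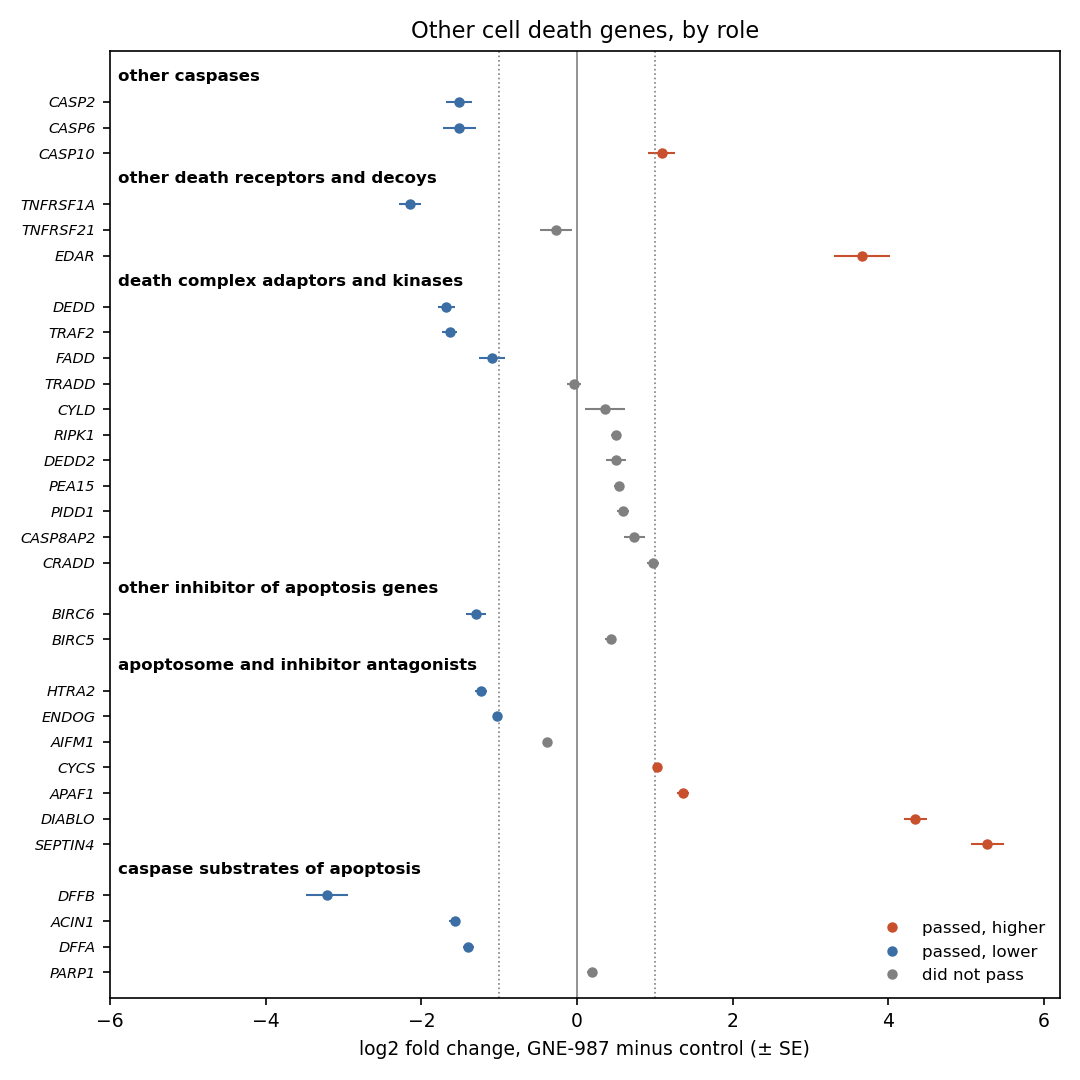
Log2 fold change (± SE) on the deposited scale of 30 of the 32 tested genes of the cell death list, grouped by role, with dotted lines at a 2-fold change. The 12 genes that pass as lower include TNFRSF1A (-2.14) and DFFB (-3.21), and the 6 that pass as higher include DIABLO (4.34) and SEPTIN4 (5.27). Of all tested genes 24.9% pass as lower and 33.6% as higher. Under scaling to GAPDH 2 pass as higher and 25 as lower, beside 2261 and 10359 of all 16220 genes tested under it.

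Target genes of NF-kB and p53, factors that can drive death receptor and IAP genes, were also listed. Of 7 tested NF-kB targets, 5 passed as higher and none as lower as deposited, with a median log2 fold change of 3.35. Among all tested genes 33.6% passed as higher and 24.9% as lower. Of the 5, TRAF1 and TNFAIP3 (0.163 and 0.206 FPKM in control) entered the test through their GNE-987 values. Both could come out only on the higher side. With GAPDH or a common FPKM sum 4 passed as higher and 2, NFKB2 and NFKBIE, as lower. NFKBIA was at 7.03 and 6.74 FPKM in control and 69.6 and 72.7 FPKM after GNE-987, and RELB (3.94) and TRAF1 (4.92 on the scale with 0.1 FPKM added, from 0.0202 and 0 to 3.15 and 3.30 FPKM) were higher under every scaling. BIRC3, a member of that list, was not tested. Of 8 p53 targets, 2 passed as higher and 2 as lower as deposited, and 1 and 6 with GAPDH. Over all genes with GAPDH, 2261 of 16220 passed as higher and 10359 as lower. CDKN1A was at 0.812 and 0.548 FPKM in control and 70.0 and 71.9 FPKM after GNE-987, whereas MDM2 was at 4.57 and 4.88 against 2.57 and 2.61 FPKM. MDM2 did not pass as deposited (-0.84) but passed as lower with reads on genes (-1.61), limma-voom (-1.66), a common FPKM sum (-2.31) and GAPDH (-2.64).

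The protein-coding gene whose 4 library values lay nearest to each tested member, by the root mean square difference of log2(FPKM + 0.1), was EEF1A2 for CASP8 (0.0499), BICRA for CASP9 (0.0686), CHML for TNFRSF10A (0.152), AP1G1 for TNFRSF10B (0.0677), EXOC7 for XIAP (0.0740), CALCOCO2 for BIRC2 (0.0211) and HPS4 for CFLAR (0.0396). With 4 libraries and 10996 genes to choose from, such near matches are a description of level and change only.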

How the data were processed

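Per the labels and the study's methods, RNA-seq reads were filtered and mapped with HISAT2 2.0.5 to hg38. The counting program, strand setting and annotation are not given in the sources used here. The authors deposited FPKM per gene and library for 2 control and 2 GNE-987 libraries. Here, log2(FPKM + 0.1) of each gene averaging 0.5 FPKM or more entered limma 3.58.1 (R 4.3.3, empirical Bayes with intensity trend, no replicate block, Benjamini-Hochberg adjustment over all tested genes). A gene passed with P under 0.05 before adjustment and a change beyond 2-fold either way, the study's thresholds. The pseudocount understates the change of low genes.

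Of 32895 genes above 0, 17431 (53.0%) gave whole reads at GENCODE release 44 exon lengths (tolerance 0.01) and 15456 at a searched length (tolerance 0.001), which is a weak test. Among the tested members only CASP9 (5269 bases) matched its annotated length. The reads given for the other members rest on a searched length. On these reads limma-voom passed 4306 genes as higher and 6795 as lower. Same-numbered libraries did not deviate together (correlation 0.00537). Members, lists and tests were chosen with earlier results of these data known. Named genes were the members, their main pathway partners, overlapping genes, the nearest-pattern gene per member and, among listed genes that passed and averaged 1 FPKM or more, the 5 that rose most and the 5 that fell most. The genes around members were added after their values were seen. Some genes of the rule are not reported here. The steps were checked on simulated data. Promoter sequences are RefSeq's, and those of TNFRSF10A and TNFRSF10B were not used here.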

Additional observations from a re-analysis of the deposited data

How the results depend on the processing

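CFLAR and TNFRSF10A kept direction and threshold under all 17 alternatives. These alternatives are not independent checks. Adjusted P, the replicate block and the filters on low values keep the fold change by design. Median-ratio scaling leaves the values nearly unchanged. The members passing as higher dropped from 1 to 0 when scaled to GAPDH, to reads on genes or to a common FPKM sum and with limma-voom on recovered reads, since CASP8 no longer passed. It turned to -0.28 with GAPDH. TNFRSF10B turned to -1.34 (GAPDH), -0.97 (FPKM sum), -0.29 (reads on genes) and -0.29 (limma-voom). The members passing as lower went from 4 to 6 with GAPDH, to 5 with reads on genes, a common FPKM sum and limma-voom, and to 2 with a pseudocount of 1, where CASP9 (-0.93) and XIAP (-0.998) were under 2-fold. For the cell death list, the 6 passing as higher became 2 (GAPDH), 3 (reads on genes, FPKM sum, limma-voom) and 10 (no filter), and the 12 passing as lower became 25 (GAPDH) and 19 (FPKM sum). Over all genes with GAPDH, 2261 of 16220 passed as higher and 10359 as lower. For the NF-kB and p53 targets together, the 2 passing as lower became 8 (GAPDH, FPKM sum), 4 (reads on genes, limma-voom) and 1 (pseudocount of 1, test against a fold change of 2), and were 1 to 2 when each library was left out. The ratio of XIAP to CASP9, near 0 in log2 change, was -0.0039 with 0.1 FPKM added, and -0.061 to 0.083 when each library was left out, with -0.061 without control replicate 1 and -0.056 without GNE-987 replicate 1. Leaving out libraries for ratios was added after the data were seen. With the replicate number as a block, 1 member passed as higher and 4 as lower, as without it, and over all genes 5667 and 4186 passed against 5602 and 4148. Apart from the effect of each scaling on the all-gene median, the causes were not tested.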
